A study of Mus musculus with 43 samples.

Results

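The 32 genes described here encode glutamate receptors and the auxiliary subunits of AMPA receptors. They were listed by name and found among the 35825 genes measured in single NAcLat→VTA cells of the mouse. By role they comprise 4 AMPA receptor subunits, 7 NMDA receptor subunits, 5 kainate receptor subunits, 1 delta receptor, 7 metabotropic receptors, 6 transmembrane AMPA receptor regulatory proteins (TARPs) and 2 cornichons. All were followed across 43 cells with a library each, 23 taken from mice on a regular diet (REG) and 20 from mice on a high-fat diet (HFD). The paper describes its mice as male and female, 6 to 8 weeks old, and of several lines that include C57BL/6J. It gives no separate strain, or age at recording, for the mice behind these cells. REG mice ate standard chow, and HFD mice could choose between standard chow and chow with 60% fat for at least 4 weeks. In both groups, fluorescent retrobeads had been injected into the ventral tegmental area (VTA), a bead-labelled neuron of the lateral nucleus accumbens (NAcLat) was recorded in a slice, and its cytosol was then drawn into the patch pipette. The recordings drew on 10 REG mice and 11 HFD mice, but the mouse behind each library is not named in the labels. Each diet was therefore treated as 1 sample, and the values are given without a test.

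Medium spiny neurons of the nucleus accumbens are inhibitory projection neurons that depend on glutamate from cortex, thalamus, amygdala and hippocampus to fire. AMPA receptors are tetramers that carry the fast current, and the GluA2 subunit, encoded by *Gria2*, makes the edited channel impermeable to calcium. TARPs and cornichons bind the pore-forming subunits, bring them to the surface and slow their closing. NMDA receptors join obligatory GluN1 subunits to GluN2 or GluN3 subunits, while metabotropic receptors couple glutamate to G proteins on either side of the synapse.

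The libraries of REG cells ranged from 176961 to 16919555 estimated counts (median 1427698), and those of HFD cells from 178341 to 8242048 (median 1416982). Division by this total gave counts per 1000000 (CPM), so that 1 count was worth between 0.0591 and 5.65 CPM. The labels place 13 REG and 5 HFD cells in batch 1, and 10 REG and 15 HFD cells in batch 2. At least 2 of 3 GABAergic markers exceeded 15 CPM in all 43 cells, and at least 4 of 7 medium spiny markers did so in 42 cells. The exception was HFD cell 7, whose medium spiny markers summed to 356 CPM. A single gene, *Lars2*, took between 2.33% and 79.8% of the counts of a cell, with the maximum in HFD cell 8. Ranges given for the removal of any 1 cell include the removal of these 2 cells. Summed microglial markers reached 1326 CPM in a REG and 1467 CPM in an HFD cell, with medians of 50.8 and 52.3 CPM. Oligodendrocyte markers reached 1185 and 1947 CPM, with medians of 98.5 and 187 CPM. At least 3 of 6 of these exceeded 15 CPM in 4 REG and 7 HFD cells. At least 2 of 4 markers of D2 medium spiny neurons did so in 1 REG and 4 HFD cells. Cells high in oligodendrocyte or D2 markers were not left out as a group.

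Most of the receptor repertoire was detected at some level in most cells. An estimated count above 0 was present in all 43 cells for 8 members, namely the AMPA subunits *Gria1* and *Gria2*, the NMDA subunits *Grin1*, *Grin2a* and *Grin2b*, the kainate subunits *Grik4* and *Grik5*, and *Grm5*, the group I metabotropic receptor mGlu5. These 8 are among the 22 members past a filter on low values, and of the 10802 genes past it 10.1% were counted in every cell. *Gria3* and *Grik2* followed with 42 cells each, *Cnih2* with 41, *Cacng3* and *Grm7* with 40, and *Cacng4* with 38. In total, 22 members were counted in more than 21 of the 43 cells. With at least 15 CPM in place of a count above 0, the number was 15. The same share was not computed over all genes. At the other end, *Grin2d* was counted in 18 cells, *Grik1* and *Cacng8* in 15, *Grm8* in 10, *Cacng5* in 9, *Cacng7* and *Grin3b* in 8, *Grm2* in 7 and *Grin2c* in 3. *Grm6*, best known from retinal bipolar cells, had a count in 2 REG cells and in 0 of 20 HFD cells, which allows up to 15% of cells with a count (3 counts over 20 cells, counting error only; the exact interval plotted for this gene ends at 16.8%). Detection intervals of both diets overlapped for all 32 members. Overlap of these intervals was not counted over all genes, so it is a description only. The widest gaps were those of *Grm4*, counted in 20 of 23 REG and 12 of 20 HFD cells, and of *Gria4*, counted in 19 and 12. A REG cell held counts on a median of 23 members, between 17 and 29, and an HFD cell on a median of 22, between 15 and 28. After every cell was thinned to 150000 counts, these medians were 19 and 17.5 members, beside 7828 and 7244.5 of all genes. Within batches the thinned medians of the members ran in opposite directions, with 18 in REG and 19 in HFD cells of batch 1 against 19.5 and 17 in batch 2. In batch 2 the thinned medians of all genes were 8246.5 in REG and 6533 in HFD cells.

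**Figure D1:**
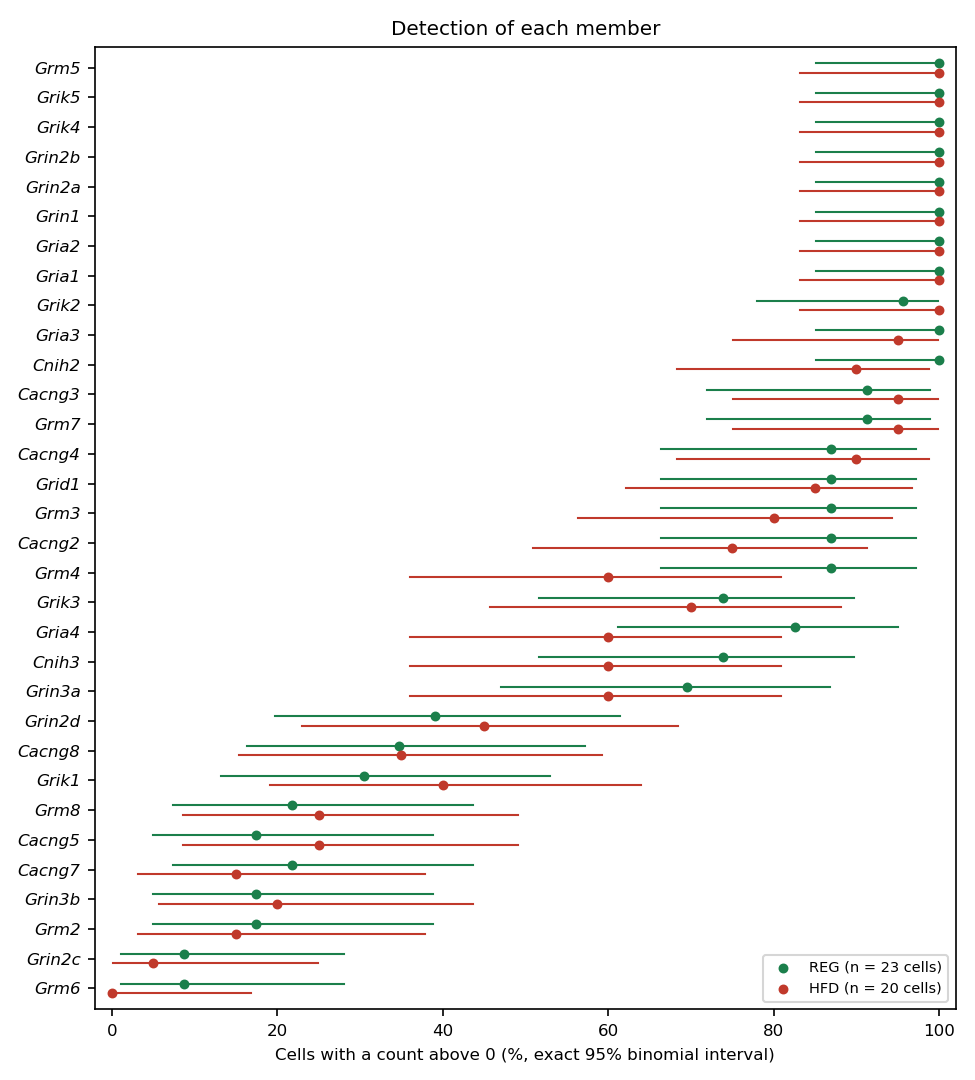
Share of cells with an estimated count above 0 (x axis, percent) for each of the 32 members, with points for 23 REG cells in green and 20 HFD cells in red and lines for exact (Clopper-Pearson) 95% binomial intervals, which cover counting error only. The 8 genes at the top were counted in every cell, *Grm6* and *Grin2c* at the bottom in 2 and 3 of 43 cells. The intervals of both diets overlap in every row, which was not counted over all genes.

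The order of the genes by level was read from TPM, the length-scaled transcript level that the authors had computed within each cell. By mean TPM over the 43 cells, *Grin2b*, the GluN2B subunit, came first with 488 TPM (median 275, range 10.7 to 2474). *Cnih2*, a cornichon, had a mean of 221 TPM and *Gria2* one of 207 TPM. These neighbours could not be ordered, since *Cnih2* was above *Gria2* in 22 cells and below it in 21. The next 4 genes lay close together, with means of 94.4 TPM for *Grin1*, 92.0 TPM for *Gria1*, 84.2 TPM for *Grm5* and 82.1 TPM for *Cacng3*. *Grik5* and *Grik2* led the kainate subunits with 60.3 and 48.4 TPM. *Cnih3* showed how far a mean can part from a typical cell, with a mean of 33.5 TPM and a median of 1.75 TPM. The lowest 6 members, *Cacng7*, *Grin3b*, *Grik3*, *Grik1*, *Grm6* and *Grin2c*, had means between 0.173 and 1.01 TPM.

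**Figure D2:**
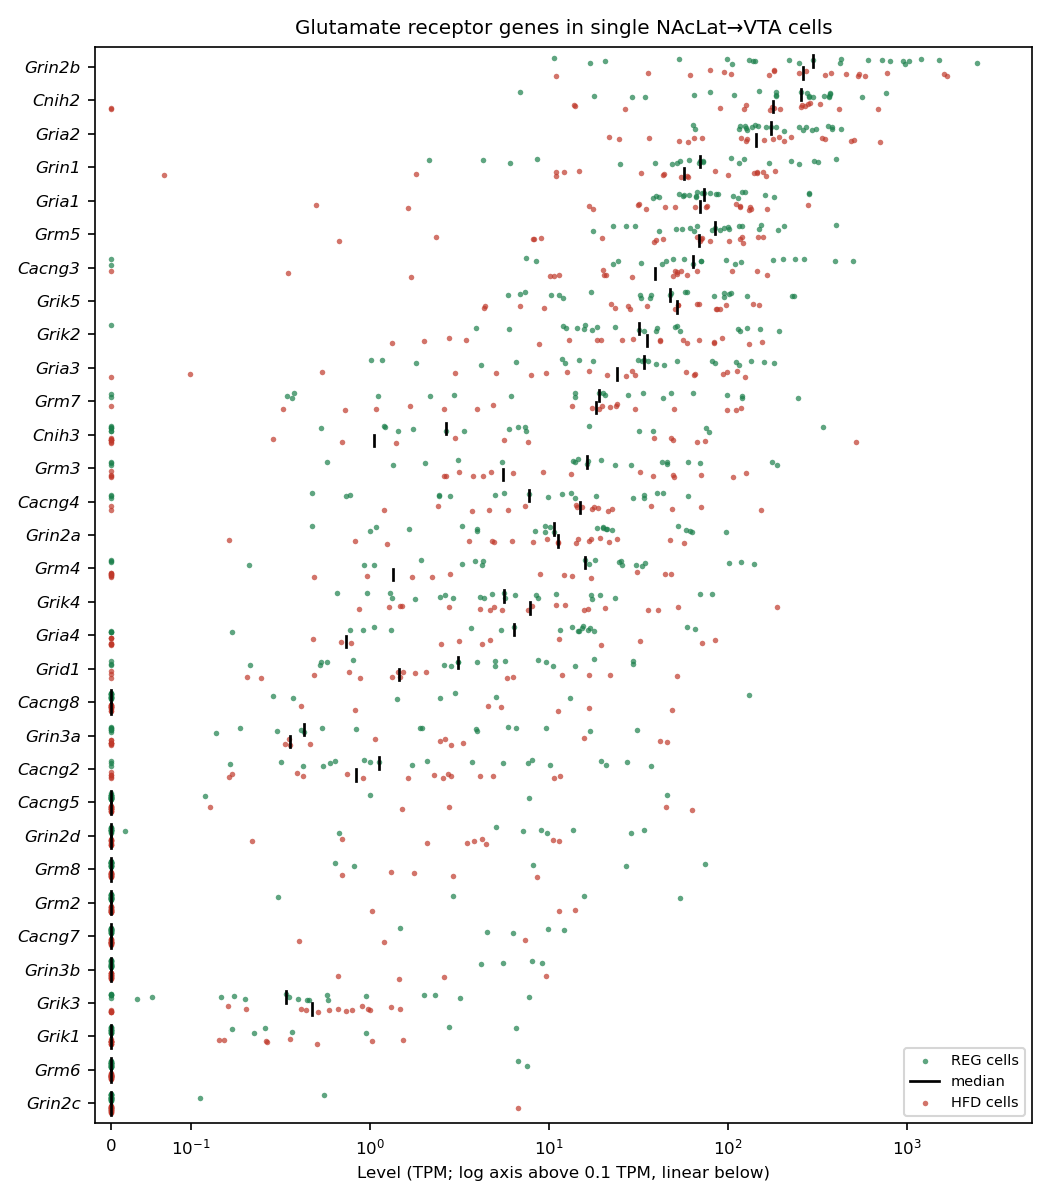
Level of each member in each cell in TPM (x axis, logarithmic above 0.1 TPM and linear below), with REG cells in green, HFD cells in red and black bars for the median of each diet, ordered from top to bottom by the mean over all cells. The levels of a single gene commonly span a factor of more than 10 between cells, and the REG and HFD points overlap for every gene.

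The first rank of *Grin2b* rested on the transcripts to which its reads had been assigned. Dividing count by TPM gives the transcript length that the authors' software applied, after scaling each cell on genes with 1 annotated transcript. For *Grin2b* this implied length had a median of 1.39 kb (quartiles 0.918 and 2.66 kb over 41 cells with at least 20 counts), whereas its longest coding transcript measures 24.1 kb. *Gria2* was at 4.58 kb against 10.4 kb and *Grik2* at 4.79 kb against 9.43 kb, while *Gria1* was at 5.63 kb against 5.55 kb. When CPM was divided by the length of the longest coding transcript instead, *Grin2b* moved from rank 1 to rank 11. On that scale the order opened with *Cnih2*, *Gria1*, *Gria2*, *Grin1*, *Grm5*, *Cacng3* and *Grik5*.

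**Figure D3:**
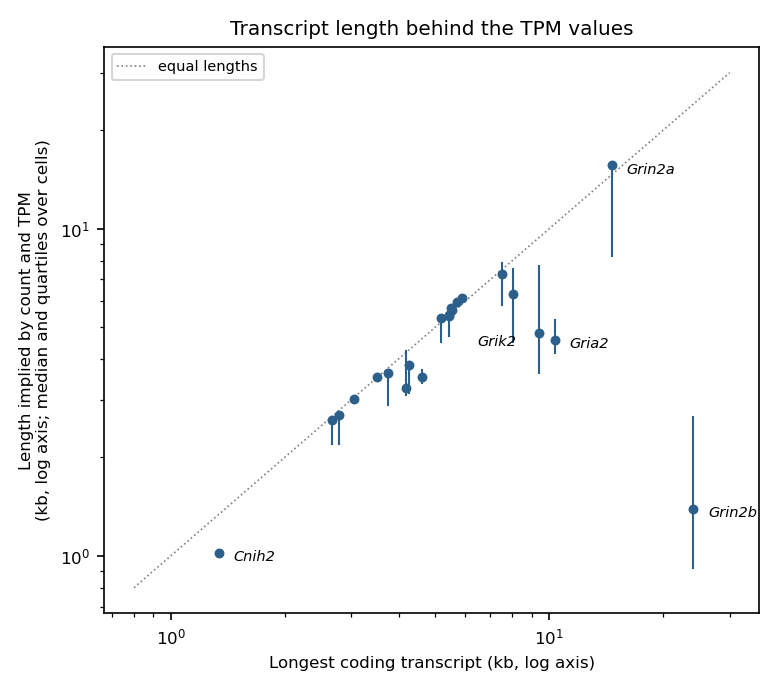
Transcript length implied by the ratio of count to TPM (y axis, kb, log axis, median and quartiles over cells with at least 20 counts) against the longest annotated coding transcript (x axis, kb, log axis) for members with at least 5 such cells. Most genes lie near the dotted line of equal lengths, and *Grin2b* lies farthest below it, at 1.39 kb against 24.1 kb.

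Diets were compared by the log2 ratio of mean CPM, HFD over REG. The filter on low values (above 15 CPM in at least 5 of the 43 cells, whatever their diet, and a mean above 4 CPM) was passed by 22 of the 32 members. None of these 22 reached a log2 ratio of 1 in HFD cells, where 9.04% of the 10802 genes past the filter did, and 3 members lay at or below −1, where 14.3% of genes did. These 3 were *Cacng2*, the TARP stargazin, *Grin2d*, the GluN2D subunit, and *Grm4*, the group III receptor mGlu4. All 3 kept a negative ratio within each batch and after the removal of any 1 cell, and 11.6% of all filtered genes were at or below −1 with the sign so kept, against 6.04% at or above 1. *Cacng2* and *Grin2d* exceeded 15 CPM in only 4 and 3 HFD cells, so they passed the filter through their REG cells and the count of 3 is a description only. The other 19 members lay between the limits. The median ratio of the 22 members was −0.33, beside −0.13 for all filtered genes, and 17 of 22 were below 0 (77.3%, against 57.2% of genes). Batches often disagreed, with opposite signs for 13 of 22 members and for 50.8% of genes. A sign kept in both batches and without any 1 cell was found for 7 of 22 members (31.8%) and for 38.0% of genes. These 7 were *Cacng4*, with a positive ratio, and *Cacng2*, *Grin2d*, *Grm4*, *Grm5*, *Grik2* and *Cnih2*, with negative ratios. The lowest-to-highest CPM ranges of REG and HFD cells overlapped for all 32 members, for *Grm6* only at 0. This was not counted over all genes, so the overlap is a description only. Scaling by TMM or DESeq2 factors raised the median of all genes by 0.14 and 0.27, and the members' median stayed 0.21 and 0.20 below that of all genes. With these factors 14 and 12 of 22 members were below 0, beside 49.7% and 44.4% of genes. With medians over cells in place of means, the members' median lay 0.07 above that of all genes.

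**Figure D4:**
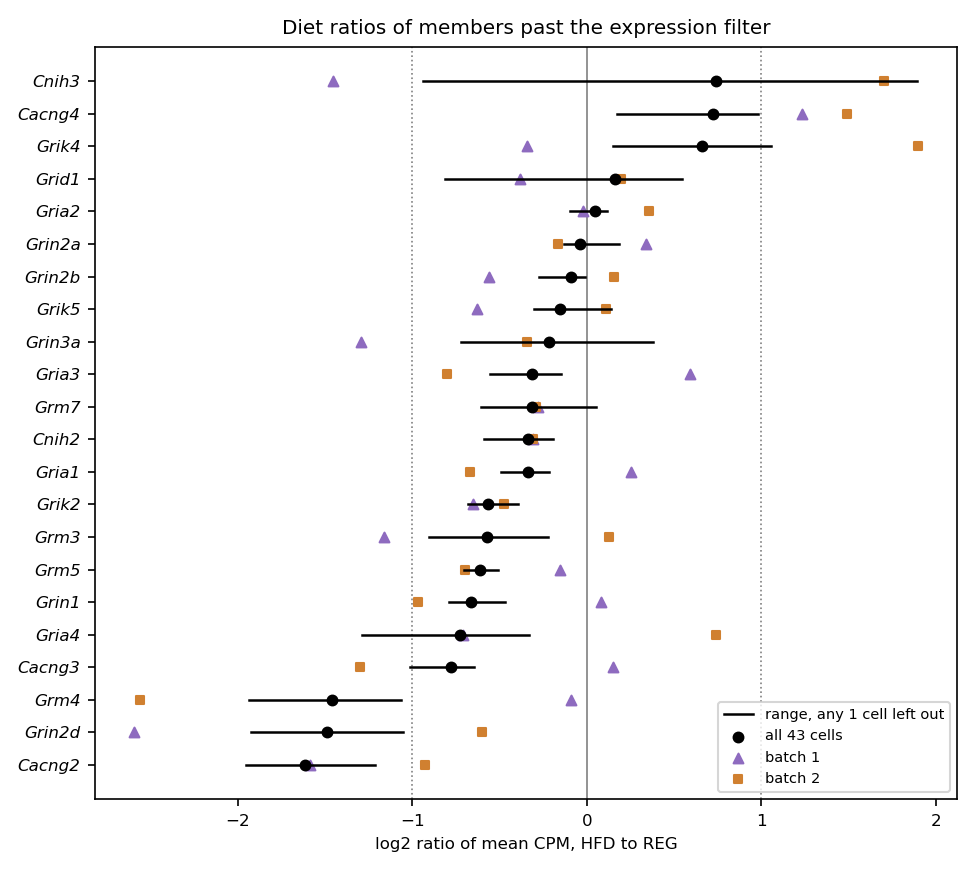
Log2 ratio of mean CPM in HFD to REG cells (x axis) for the 22 members past the filter, with black points for all 43 cells, black lines for the range when any 1 cell is left out, triangles for batch 1, squares for batch 2 and dotted lines at −1 and 1. *Cacng2*, *Grin2d* and *Grm4* lie beyond −1, and for 13 genes the triangle and the square fall on opposite sides of 0.

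Among the AMPA receptor subunits, *Gria2* (GluA2; chr3:80681450-80802835, GRCm38) made up the largest share in a typical cell and had the diet ratio of CPM closest to 0 among the 4. Its share of the summed AMPA subunit TPM within a cell ranged from 20.4% to 83.9% among REG cells (median 55.9%) and from 17.9% to 85.6% among HFD cells (median 61.1%). *Gria1* (GluA1; chr11:57011387-57330244) followed with medians of 27.3% and 23.5%. *Gria3* (GluA3) held 9.76% and 11.2%, and *Gria4* (GluA4) held 3.29% and 0.360%. All these medians pool the batches. By batch, the median share of *Gria2* was 58.3% in REG and 57.2% in HFD cells of batch 1, and 55.7% and 63.6% in batch 2. Shares of the other subunits are not given by batch. By TPM, *Gria2* was the leading subunit in 37 of 43 cells, 20 of 23 REG and 17 of 20 HFD. The 6 exceptions were led by *Gria1* or *Gria3* in 3 cells each, and the extreme was HFD cell 19, where *Gria1* supplied 82.0% and *Gria2* 17.9%. The lead of *Gria2* depended on length, since with CPM per kb of the longest coding transcript *Gria2* led in 19 cells and *Gria1* in 20, and the median share of *Gria2* in REG cells was 38.0%.

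**Figure D5:**
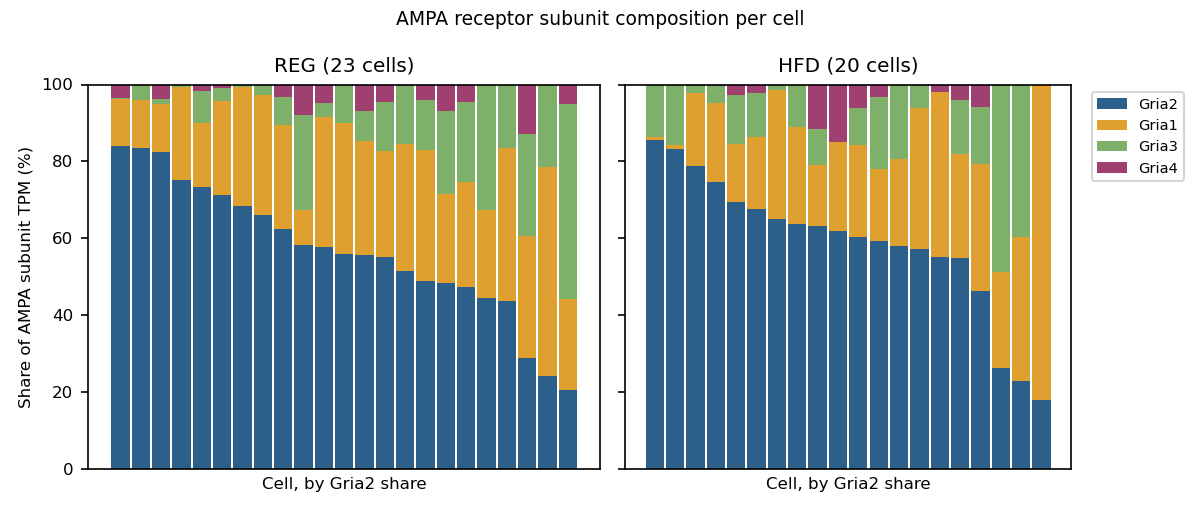
Share of each AMPA receptor subunit in the summed AMPA subunit TPM (y axis, percent) of each cell, 1 bar per cell, with 23 REG cells at left and 20 HFD cells at right, sorted by the *Gria2* share. *Gria2* forms the largest segment in 20 REG and 17 HFD cells, and its share falls to 20.4% and 17.9% in the lowest cell of each diet.

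In CPM, the lowest, median and highest levels of *Gria2* were 195, 537 and 1182 CPM in REG cells and 51.5, 506 and 1674 CPM in HFD cells. The mean was 589 CPM in REG and 607 CPM in HFD, a log2 ratio of 0.05 (−0.02 in batch 1 and 0.36 in batch 2). Levels of this subunit were thus nearly equal on average, with the lowest and the highest cell both from HFD mice, and the ratio was −0.09 without HFD cell 5. For *Gria1*, the corresponding levels were 150.3, 279.9 and 998 CPM in REG cells and 2.13, 232 and 848 CPM in HFD cells, with a log2 ratio of −0.34 that was 0.25 in batch 1 and −0.67 in batch 2. Every REG cell exceeded 150 CPM of *Gria1*, whereas 2 of 20 HFD cells lay under 15 CPM. *Gria3* had a ratio of −0.31, again of opposite sign in the batches (0.59 in batch 1 and −0.80 in batch 2). *Gria4* reached a ratio of −0.73, exceeded 15 CPM in 12 REG and 6 HFD cells, and was −0.71 in batch 1 and 0.74 in batch 2. It passed −1 without HFD cell 5 (−1.29), and by TPM the ratio of *Gria4* was −0.04, beside −0.05 for *Gria2*. No AMPA subunit therefore kept 1 direction across batches. Without the 6 cells in which at least 4 of 7 microglial markers exceeded 15 CPM, 2 REG and 4 HFD, the ratios of *Gria1* to *Gria4* were −0.24, 0.04, −0.37 and −0.59.

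Of the TARPs, *Cacng3* (γ3) was the main transcript and *Cacng2* (stargazin, γ2) the one with the lowest diet ratio of all members past the filter. *Cacng3* led the TARPs by TPM in 31 of the 42 cells that had any, with median shares of 77.2% in REG and 54.4% in HFD cells. *Cacng4* (γ4) came next with 8.17% and 22.97%, and *Cacng2* held 2.99% and 2.14%. For *Cacng2* (chr15:77991748-78120028), a transcript of low abundance counted in 35 cells, the lowest, median and highest levels were 0, 5.24 and 159.7 CPM in REG cells and 0, 3.16 and 41.3 CPM in HFD cells. Lower quartiles were 1.96 CPM in REG and 0.413 CPM in HFD cells, and 20 of 23 REG and 15 of 20 HFD cells had a count. Above 15 CPM lay 8 REG and 4 HFD cells. Means were 25.3 CPM in REG and 8.28 CPM in HFD, a log2 ratio of −1.61 that was −1.59 in batch 1 and −0.93 in batch 2. After the removal of any 1 cell it lay between −1.95 and −1.22, and from summed counts it was −0.80. Of the 31-base words in *Cacng2* transcripts, 6.45% also occur in other genes, so part of its reads could be divided among them.

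*Cacng4* had a ratio of the opposite sign, with 0, 15.6 and 158 CPM as the lowest, median and highest REG levels and 0, 28.7 and 396 CPM in HFD cells. Its log2 ratio of 0.72 did not reach 1 over all cells, although it was 1.23 in batch 1 and 1.49 in batch 2. Both diets had lower levels in batch 2, which held most HFD cells, with REG means of 50.9 and 12.6 CPM and HFD means of 119 and 35.4 CPM in batches 1 and 2. It is the only one of the 22 members with a positive ratio within each batch and after the removal of any 1 cell. *Cacng3* had a ratio of −0.78 that differed in sign between batches (0.15 in batch 1 and −1.30 in batch 2), and it passed −1 without HFD cell 1 (−1.01) and by TPM (−1.29). The remaining TARPs, *Cacng5*, *Cacng7* and *Cacng8*, did not pass the filter. *Cacng4* and *Cacng5* are neighbours on chromosome 11 and were counted together in 7 cells, against 31 cells with *Cacng4* alone and 2 with *Cacng5* alone. *Cacng7* and *Cacng8* are neighbours on chromosome 7 and shared 3 cells, against 5 and 12 with either alone.

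In a typical cell nearly all cornichon transcript was *Cnih2*, with median shares by TPM of 98.4% in REG and 98.9% in HFD cells. *Cnih2* exceeded *Cnih3* in 40 of 42 cells by TPM and in 36 by CPM. Mean levels over all cells were 221 TPM for *Cnih2* and 33.5 TPM for *Cnih3*. The lowest, median and highest *Cnih2* levels were 4.75, 148 and 475 CPM in REG cells and 0, 114 and 502 CPM in HFD cells. All 23 REG cells and 18 of 20 HFD cells had a count. The log2 ratio of −0.34 was nearly the same within batches (−0.31 in batch 1 and −0.31 in batch 2). Over 15 alternative scalings, summaries and sets of cells, the ratio of *Cnih2* ran from −0.80 to 0.84 and kept its sign in 13. *Cnih3* had the highest ratio of the members past the filter, 0.74, but HFD cell 19 alone supplied 70.3% of the CPM summed over HFD cells. Without that cell the ratio was −0.94, and without REG cell 10, which supplied 57.0% of the REG sum, it was 1.89. Median *Cnih3* levels were 4.10 CPM in REG and 1.75 CPM in HFD cells, so no direction could be given for this gene.

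The NMDA receptor genes consisted mainly of *Grin1*, the obligatory GluN1 subunit, *Grin2b* and *Grin2a*. *Grin2b* exceeded *Grin2a* by TPM in 42 of 43 cells, by CPM in 41 and by CPM per kb of the longest coding transcript in 34, so the direction was common to all scales while the size was not. Its median share of the GluN2 subunits was 94.4% in REG and 94.9% in HFD cells by TPM, but 74.5% and 67.8% by CPM and 58.6% and 55.3% per kb. In CPM, the lowest, median and highest levels of *Grin2b* were 39.6, 294 and 841 CPM in REG cells and 10.4, 307 and 1215 CPM in HFD cells, and the log2 ratio was −0.09. Within batches the ratio of *Grin2b* was −0.56 in batch 1 and 0.16 in batch 2. *Grin2a* had a ratio of −0.04 (0.34 in batch 1 and −0.17 in batch 2), which was 0.18 without REG cell 21. The ratios of these subunits depended on the scale, and by TPM they were −0.39 for *Grin2b* and −0.62 for *Grin2a*. *Grin1* ran from 5.65 to 929.9 CPM in REG cells (median 162) and from 0.183 to 409 CPM in HFD cells (median 130.5). Its ratio of −0.66 was 0.08 in batch 1 and −0.97 in batch 2. Of the 31-base words of *Grin1*, 10.7% recur elsewhere, most of them in the antisense gene *Grin1os*, and since the kit does not mark strand such reads cannot be told apart. *Grin2a* shares 12.1% of its words, most of them with *Gm7328*.

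*Grin2d* (chr7:45831883-45878378) encodes GluN2D, a subunit typical of interneurons and early development, and was counted in 9 cells of each diet. Medians were 0 CPM in both diets and the highest cells reached 111 CPM in REG and 35.2 CPM in HFD. With 7 REG and 3 HFD cells above 15 CPM, the mean was 16.6 CPM in REG and 5.91 CPM in HFD, a log2 ratio of −1.49 (−2.59 in batch 1 and −0.60 in batch 2) that stayed between −1.92 and −1.05 without any 1 cell. With DESeq2 size factors it was −0.61. Cells with a count were equally many, and the difference lay in the level of the highest cells. The summed markers of Pvalb, Sst or Npy interneurons had medians of 15.2 CPM in REG and 24.8 CPM in HFD cells (highest 257 and 484 CPM), and at least 3 of 6 exceeded 15 CPM in 1 REG and 2 HFD cells. Their part in the *Grin2d* values was not tested. Among the GluN3 subunits, *Grin3a* was counted in 28 cells and *Grin3b* in 8. The ratio of *Grin3a*, −0.22, had no stable sign, with 0.38 without REG cell 23, −0.72 without HFD cell 16 and 0.67 by TPM, although it was −1.30 in batch 1 and −0.34 in batch 2. *Grin3b* shares 27.0% of its words with its neighbour *Tmem259*, so its few counts could include reads of that gene. *Grin2c* had counts in 2 REG cells and 1 HFD cell.

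Kainate receptor transcripts consisted mainly of *Grik5*, a high-affinity subunit that needs a partner to form channels, and *Grik2*, a subunit that can form them. Median shares of the summed kainate TPM were 45.2% and 52.9% for *Grik5* and 34.0% and 34.0% for *Grik2* in REG and HFD cells. *Grik4*, another high-affinity subunit, held 7.97% and 8.03%. Either of the leading pair could dominate a cell, with *Grik5* first in 24 cells, *Grik2* in 14 and *Grik4* in 5. *Grik2* had levels of 0, 118 and 543 CPM (lowest, median and highest) in REG cells and 8.56, 94.8 and 266 CPM in HFD cells. Its log2 ratio of −0.56 was −0.65 in batch 1 and −0.48 in batch 2 and stayed between −0.68 and −0.39 without any 1 cell. *Grik5* had a ratio of −0.15, which was 0.14 without REG cell 5. *Grik4* had one of 0.66, which differed in sign between batches (−0.35 in batch 1 and 1.90 in batch 2) and ran from 0.15 without HFD cell 13 to 1.06 without REG cell 2. *Grik1* and *Grik3* stayed below the filter, with 15 and 31 cells counted and highest levels of 10.4 and 45.8 CPM. The delta receptor gene *Grid1*, whose protein links synapses rather than passing a glutamate current, was counted in 37 cells with a median of 2.05 TPM. Its ratio of 0.16 was −0.81 without HFD cell 15, which supplied 51.8% of the HFD sum.

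*Grm5* supplied the largest part of the metabotropic receptor transcript, leading by TPM in 29 of 43 cells with median shares of 47.1% in REG and 48.7% in HFD cells. Its protein, mGlu5, couples to Gq and is a postsynaptic receptor of medium spiny neurons. The lowest, median and highest *Grm5* levels were 95.6, 260.5 and 870.3 CPM in REG cells and 2.84, 255 and 513 CPM in HFD cells. Pooled medians lay within a few CPM of each other, and the lowest HFD cell was far below the lowest REG cell. Within batches the REG and HFD medians were 362 and 337 CPM in batch 1 and 230 and 150 CPM in batch 2. The log2 ratio of the means, −0.61, was −0.16 in batch 1 and −0.70 in batch 2 and stayed between −0.71 and −0.51 without any 1 cell. *Grm3*, a group II receptor also known from astrocytes, had a ratio of −0.57 (−1.16 in batch 1 and 0.13 in batch 2), and the group II receptor *Grm2* was counted in 7 cells. Summed astrocyte markers had medians of 212 CPM in REG (range 2.71 to 773) and 111 CPM in HFD cells (range 6.05 to 1198). At least 4 of the 7 exceeded 15 CPM in 1 REG and 2 HFD cells, *Aqp4* was above 0 in 14 of 43 cells, and the part of these markers in the *Grm3* values was not tested.

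The group III receptors are mostly presynaptic and lower cAMP. *Grm4* (chr17:27422387-27521403), the member with the widest gap in detection when batches are pooled, had 0, 35.8 and 345 CPM as the lowest, median and highest REG levels and 0, 2.45 and 126 CPM in HFD cells. More REG than HFD cells were high, with 12 and 6 above 15 CPM. The mean was 54.7 CPM in REG and 19.8 CPM in HFD, a log2 ratio of −1.46 that stayed between −1.94 and −1.07 without any 1 cell. It differed in size between batches, with −0.09 in batch 1, where means were 55.8 and 52.3 CPM, and −2.56 in batch 2, where they were 53.1 and 8.99 CPM. With batches pooled, the median share of *Grm4* among the metabotropic receptors was 7.69% in REG and 0.547% in HFD cells. This share does not depend on the total of a cell. It is not given by batch, and batch 2 held 15 of the 20 HFD cells. *Grm7* was more abundant, with a mean of 34.1 TPM, and had a ratio of −0.32 that was −0.28 in batch 1 and −0.29 in batch 2, and 0.05 without REG cell 7. *Grm8* was counted in 5 cells of each diet, with a highest level of 73.9 CPM in REG and 5.61 CPM in HFD cells, and did not pass the filter. Without the 6 cells high in microglial markers, the ratios of *Cacng2*, *Grin2d* and *Grm4* were −1.58, −1.54 and −1.40, close to those over all cells.

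Levels of different receptor transcripts were mostly weakly, and more often positively than negatively, related across cells. Over the 136 pairs of the 17 members counted in at least 35 cells, Spearman's rho of CPM across the 43 cells had a median of 0.14, and 30 pairs were below 0. The pair with the highest rho was *Gria1* and *Grin1*, at 0.53 over all cells, 0.69 in REG, 0.47 in HFD, 0.58 in batch 1 and 0.45 in batch 2. Next came *Grin1* with *Grm5* at 0.49 (0.12 in batch 1 and 0.64 in batch 2). *Gria1* with *Gria2* was also at 0.49 (0.15 in batch 1 and 0.59 in batch 2). *Grik4* and *Cnih2* had the lowest, at −0.59 (−0.27 in batch 1 and −0.78 in batch 2). These values are a description, since cells share mice, batches and the depth that sets their zeros. No rho over pairs of other genes was computed. Thinning all cells to 150000 counts left the median rho at 0.15. The summed CPM of the 32 members had a median of 3185 in REG and 2768 in HFD cells, and the lowest value, 315 CPM, came from HFD cell 8, the cell with the highest share of *Lars2*.

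Partner genes of these receptors were described from lists of 62 symbols, of which 61 were in the tables and 53 passed the filter. They cover other proteins of the AMPA receptor complex, trafficking and anchoring, kainate auxiliary subunits, metabotropic scaffolds, NMDA receptor output, editing enzymes and glutamate transporters. At or above a ratio of 1 lay 3 of the 53 (5.66%, against 9.04% of all genes past the filter), at or below −1 lay 4 (7.55%, against 14.3%), and the median was −0.12. With the sign kept in both batches and without any 1 cell, 1 higher and 4 lower genes were left. These shares do not exceed those of all genes, and the genes are named as a description. The higher one was *Pick1*, a scaffold that binds GluA2 and takes part in its internalization, with means of 29.1 CPM in REG and 69.5 CPM in HFD cells and a log2 ratio of 1.26 (2.39 in batch 1 and 0.56 in batch 2). Without HFD cell 1 the ratio of *Pick1* was 0.50. The lower genes were *Abhd6*, a lipase that binds AMPA receptors and limits their delivery, *Grip1*, a scaffold that binds GluA2, *Olfm3*, a secreted protein of the receptor complex, and *Porcn*, an acyltransferase that also binds the receptor. *Abhd6* had means of 93.8 CPM in REG and 23.2 CPM in HFD cells and the lowest ratio of the 53 genes, −2.01 (−3.71 in batch 1 and −1.72 in batch 2), which lay between −2.59 and −1.67 after the removal of any 1 cell. *Grip1* was at −1.53, *Olfm3* at −1.29 and *Porcn* at −1.11, with −0.71, −0.14 and −0.40 in batch 1 and −2.14, −2.05 and −1.20 in batch 2. Each came above −1 when 1 cell was left out, *Grip1* without REG cell 16 (−0.97), *Olfm3* without REG cell 6 (−0.72) and *Porcn* without REG cell 6 (−0.90) or REG cell 11. Without HFD cell 1, *Olfm3* was at −2.27. No gene passed a ratio of 1 in either direction among the 2 kainate auxiliary genes, the 10 metabotropic scaffold and output genes, the 9 NMDA output genes or the 3 editing enzymes past the filter.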

How the data were processed

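Cells were reverse transcribed and amplified with SMART-Seq kits, which do not mark strand, and made into libraries with Nextera XT. With kallisto 0.45.1, the authors assigned reads to the Ensembl GRCm38.95 transcriptome, summed transcripts to genes, and excluded cells more than 3 median absolute deviations below the median in reads or genes. They deposited estimated counts without normalization, and TPM scaled within each cell.

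Members and lists were chosen with earlier results of these data known. All members are named, and of the partner lists the genes past a log2 ratio of 1 whose sign was kept in both batches and without any 1 cell. CPM is the estimated count divided by the summed counts of its cell, times 1000000, and ratios carry no pseudocount. As the labels name no mouse, no test was run, and intervals are exact (Clopper-Pearson, 95%) and cover counting error only. Lengths, positions and shared words of 31 bases came from GENCODE annotation of GRCm38. Implied lengths were scaled on 2207 coding genes with 1 transcript of at least 1500 bases. The ratio was tested on simulated data. Alternatives covered TPM, TMM factors from edgeR, DESeq2 size factors, other summaries, filters, batches, thinning and each cell left out. Python 3.11.15, R 4.3.3, edgeR 4.0.16 and DESeq2 1.42.0 were used.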

Additional observations from a re-analysis of the deposited data

How the results depend on the processing

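The number of members at or below a log2 ratio of −1, which was 3, became 6 with medians over cells and 5 in batch 1 alone. It was 6 without a filter and 4 with TPM. With DESeq2 size factors, summed counts, batch 2 alone, or edgeR coefficients without or with batch, it was 2. These counts take whichever members passed, and in batch 2 they include *Cacng3* (−1.30). *Grin2d* lay above −1 with DESeq2 size factors (−0.61), in batch 2 (−0.60), with mean log2(CPM + 1) (−0.26) and as edgeR coefficients (−0.98 and −0.93), *Cacng2* with medians over cells (−0.73), summed counts (−0.80), in batch 2 (−0.93) and with mean log2(CPM + 1) (−0.94), and *Grm4* in batch 1 (−0.09). The cause was not tested. The count at or above 1, which was 0, became 1 with TMM factors, DESeq2 size factors, summed counts, batch 1 alone, the mean of both batches or edgeR coefficients, 2 without a filter, and 3 in batch 2 alone or with edgeR coefficients and batch as a term. Of all filtered genes, 13.1% lay there with TMM factors, 21.6% with DESeq2 size factors, 14.1% with summed counts and 18.5% in batch 1. The share was 9.36% as the mean of both batches, 13.4% in batch 2, and 13.1% and 12.5% as edgeR coefficients without and with batch. Leaving out each cell in turn gave 0 to 1 higher and 3 to 4 lower members; the 1 higher member was *Grik4* without REG cell 2 or *Cnih3* without REG cell 10. The members' median of −0.33 was −0.35 with TPM, −0.20 with TMM factors, −0.0591 with DESeq2 size factors, −0.31 with medians over cells, −0.53 with summed counts, −0.44 with mean log2(CPM + 1), −0.25 after thinning, −0.30 in batch 2, −0.27 as the mean of both batches, −0.21 and −0.18 as edgeR coefficients without and with batch, −0.38 without the 6 cells high in microglial markers, −0.45 without a filter and −0.34 with a filter at 10 cells. With any 1 cell left out it lay between −0.48 and −0.26. The median over all genes moved with the scaling, and higher genes made up 38.8% of all genes past the fold, 51.7% with TMM factors, 62.9% with DESeq2 size factors, 27.3% with medians over cells, 19.02% with mean log2(CPM + 1), and 51.8% and 50% as edgeR coefficients without and with batch. *Grin2d*, *Grik2*, *Grm5*, *Grm4*, *Cacng2* and *Cacng4* kept their sign under every alternative that gave them a value, 14 for *Grin2d* and 15 for the others, and the other 16 members past the filter did not.

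The share of *Gria2* among the AMPA subunits was 38.0% in REG cells with CPM per kb of the longest coding transcript, an alternative chosen after seeing the data. For *Grin2b* among the GluN2 subunits, the REG share was 74.5% with CPM and 58.6% per kb, and the HFD share 67.8% and 55.3%. With any 1 cell left out, median shares lay at 55.7% to 56.9% (REG) and 60.4% to 61.8% (HFD) for *Gria2*, at 94.2% to 94.6% (REG) and 94.6% to 95.3% (HFD) for *Grin2b*, at 76.0% to 77.6% (REG) and 52.4% to 54.7% (HFD) for *Cacng3*. No paired analysis was possible because no label ties a cell of either diet to one of the other. Depth limits the rare members, since a count was worth up to 5.65 CPM in the shallowest cell, and 19 in place of 22 members were counted in over 21 cells after thinning.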

Other observations

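Among the partner genes, *Grip2*, a scaffold related to *Grip1*, was far more abundant than any receptor gene, with a median of 759 TPM, counts in all 43 cells, and means of 3686 CPM in REG and 3841 CPM in HFD cells (log2 ratio 0.06). It was chosen for mention after its values were seen. *Olfm2* and *Slc17a7* were the other list genes past the filter at or above a ratio of 1, both at 1.08, without a sign kept in both batches and without any 1 cell.

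For the 10 members below the filter the mean levels were at most 13.3 CPM in either diet. *Cacng5* had the highest of these means, in HFD cells, where 1 cell supplied 51.2% of the sum. For *Grm2*, 1 REG cell supplied 79.6% of the REG sum and 1 HFD cell 75.6% of the HFD sum.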
